A study of Homo sapiens with 12 samples.

Results

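The 6 libraries described here, of 12 in the series, compared the transcriptomes of cells with NELFA knocked down and of cells with both NELFA and YAP knocked down. All were made from MDA-MB-231, an established triple-negative breast cancer cell line with mesenchymal features, transfected with pools of siRNA and sequenced as rRNA-depleted total RNA. The control arm of this comparison was siNELFA (3 libraries, siRNA pool against NELFA) and the other arm was siNELFA+siYAP (3 libraries, pools against NELFA and YAP1, cotransfected), so that NELFA was targeted in both. The remaining 6 libraries, siControl (non-targeting pool, n = 3) and siYAP (pool against YAP1, n = 3), entered only where the response to YAP knockdown without NELFA knockdown was needed. By the labels every group received siRNA at 50 to 100 nM and RNA was taken at 48 and 72 hours. The labels do not say which library came from which time, and the study's methods give the later one for sequencing. The 6 libraries were chosen by their group label, and all expressed genes were described.

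YAP1 encodes YAP, a transcriptional co-activator without a DNA-binding domain of its own. In the nucleus it sits on TEAD factors, which bind the sequence GGAATG, and drives genes for matricellular signals, cytoskeleton and growth, while the Hippo kinases LATS1 and LATS2 phosphorylate YAP and keep it in the cytoplasm. NELFA is a subunit of the negative elongation factor NELF, which holds RNA polymerase II in a paused state shortly after it leaves the promoter. In breast cancer cells of the mesenchymal type YAP is known for high activity and for the induction of CTGF, CYR61 and ANKRD1.

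Library totals ran from 11939164 to 18367885 counts over these 6 libraries. Expression is given as CPM (a gene's counts scaled to the size of its library), adjusted with TMM factors over the 12 libraries, and a difference as the log2 fold change of siNELFA+siYAP over siNELFA. All 8 identity markers of the line were present throughout, with VIM at a mean of 1609.9 CPM in siNELFA and 1725 CPM in siNELFA+siYAP, and with ZEB1 at a mean of 112 CPM in each. Against siNELFA 2 and 3, FN1 of this list was called higher (0.38, adjusted p = 0.0168) and CAV1, the caveolar coat protein, lower (-0.29, adjusted p = 0.0263), and with siNELFA 1 they were at -0.25 and -0.13. Among markers of other cell types, HBB was at 0 counts in all 6 libraries, and ESR1, PGR and FOXA1, which mark hormone receptor-positive cells, had at most 6 counts in any library. Others on those lists were present in all 6 libraries. The luminal keratin KRT19 had 827 to 1781 counts, ERBB2 591 to 1342, EPCAM and GATA3 58 to 197 and GRB7 40 to 108. The macrophage-associated CD68 had 1860 to 3554 counts and CD14 54 to 439. Of the fibroblast and endothelial markers, COL1A1 had 178 to 441 counts, PDGFRB 190 to 438, PECAM1 30 to 85 and COL1A2 10 to 652.

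Library 1 of siNELFA stood apart from the others before any test. Its median absolute log2 difference per gene was 0.403 and 0.428 from siNELFA 2 and 3, whereas siNELFA 2 and 3 differed from each other by 0.179 and the siNELFA+siYAP libraries among themselves by 0.0984 to 0.107. It held 599 counts of CDH1, the epithelial cadherin, against 14 or fewer in the other 5 libraries, 652 counts of the collagen gene COL1A2 against 36 or fewer, and 439 counts of CD14 against 123 or fewer. Replicate numbers 1 to 3 of siControl, siYAP and siNELFA moved together, since deviations of same-numbered libraries from their group means correlated at r = 0.698 to 0.907 across 10440 genes. The same-numbered siNELFA+siYAP libraries did not follow them (r = -0.055 to 0.061). The labels call the siNELFA+siYAP libraries replicates 1 to 3 and the study's methods speak of independent biological replicates, but their library names end in N1_1, N1_2 and N1_3 where those of the other groups end in N1, N2 and N3, and no label says what N stands for. Whatever the replicate number marks in the other groups was therefore not balanced between the arms compared here, its part in the results was not tested, and p-values measure only the spread between these libraries, which may be technical. Each comparison was made with all 3 siNELFA libraries and again with siNELFA 2 and 3 only.

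YAP1 itself fell to 15.8% of its mean level in siNELFA. YAP1 (ENSG00000137693, GRCh38 chr11:102110447-102233424, plus strand) stood at 292, 247 and 254 CPM in siNELFA 1 to 3 and at 44.1, 40.7 and 40.1 CPM in siNELFA+siYAP 1 to 3. Every siNELFA+siYAP library lay far below every siNELFA library. The log2 fold change was -2.67 (SE 0.12, edgeR quasi-likelihood test, adjusted p = 0.000493), and -2.59 (SE 0.07, adjusted p = 2.6e-09) against siNELFA 2 and 3. An exact two-sided permutation test of the 6 log2 CPM values gave p = 0.1, the smallest that its 20 splits allow. In RNA from a whole culture, fewer cells carrying a transcript and less of it per cell cannot be told apart.

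NELFA (ENSG00000185049, GRCh38 chr4:1982717-2041903, minus strand) was low in both arms, which is the premise of the comparison. It stood at 9.96, 9.05 and 7.11 CPM in siNELFA and at 8.20, 6.73 and 6.35 CPM in siNELFA+siYAP, against a mean of 26.9 ± 1.37 CPM (SD, n = 3) in siControl. The ranges of the 2 knockdown arms overlapped, with a log2 fold change of -0.30 (adjusted p = 0.764) over all libraries and -0.20 (adjusted p = 0.728) against siNELFA 2 and 3. The other NELF subunits NELFB, NELFCD and NELFE did not pass in either comparison, with log2 fold changes between -0.13 and 0.08.

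**Figure D1:**
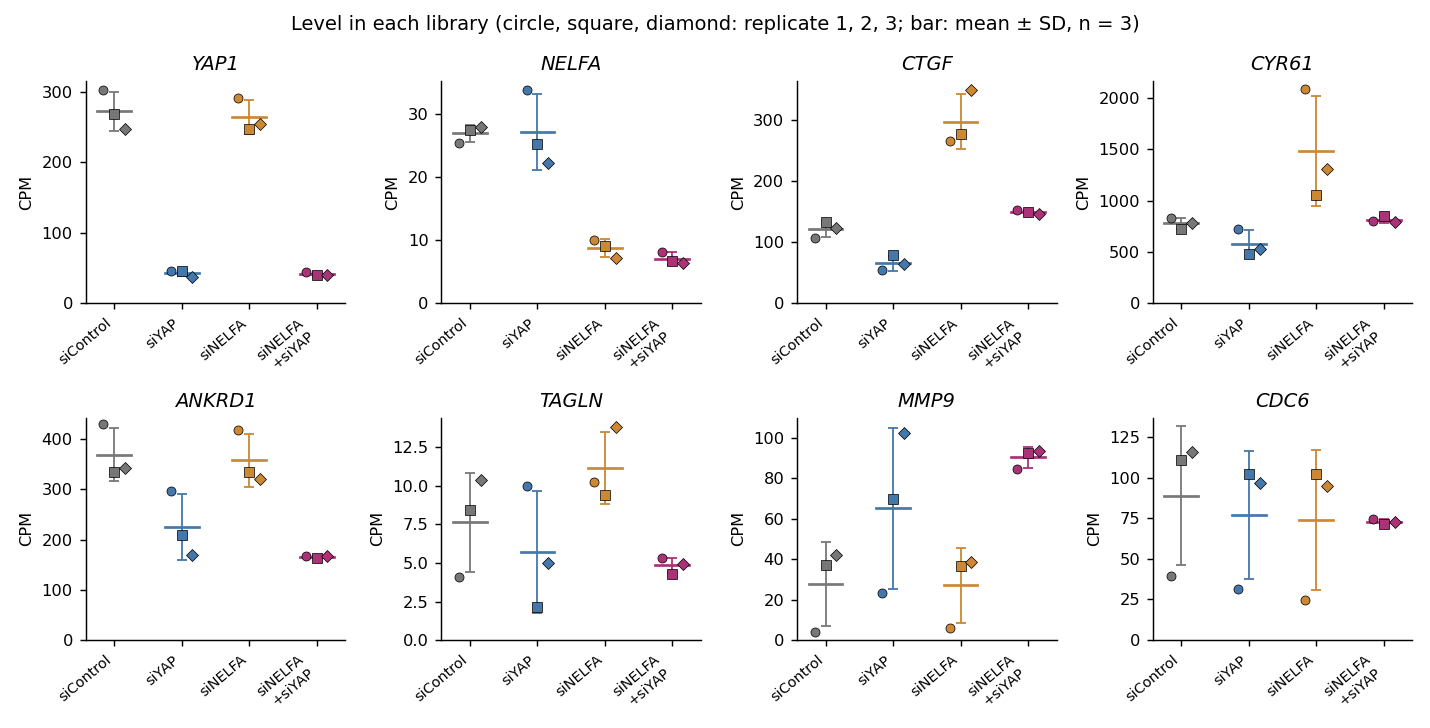
Level of 8 genes in CPM (vertical axis, from 0) in each library of the 4 groups (horizontal axis), with circle, square and diamond for replicates 1 to 3 and bars for the mean ± SD (n = 3). YAP1 drops from 247 to 292 CPM in siNELFA to 40.1 to 44.1 CPM in siNELFA+siYAP, while MMP9 and CDC6 are low in replicate 1 of siControl, siYAP and siNELFA alike.

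YAP target genes fell with YAP1. Of 22 YAP and TEAD targets tested against siNELFA 2 and 3, 20 were lower and 8 passed the test, all of them lower: ANKRD1, CTGF, CRIM1, TGFB2, CYR61, CCDC80, ARHGEF17 and AMOTL2. Leaving out siNELFA+siYAP 1, 2 or 3 left 4, 4 or 5 called lower, and with siNELFA 3 or siNELFA 2 as the lone control library 14 or 12 were called lower and 0 or 2 higher. Over all genes tested, 0.766% were called lower in that comparison and 0.481% higher. The list's median log2 fold change was -0.37, against -0.0017 over all genes, and with all 3 siNELFA libraries it was -0.49, with 12 targets lower at an unadjusted p under 0.05 and none past the adjusted threshold. Taken against each siNELFA library alone, the list's median difference was -0.67, -0.26 and -0.44 for libraries 1, 2 and 3, with 16, 19 and 20 of the 22 genes lower.

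CTGF (connective tissue growth factor, now CCN2) and ANKRD1 (a nuclear ankyrin-repeat protein) had the largest fold changes among targets called against siNELFA 2 and 3. CTGF stood at 266, 278 and 350 CPM in siNELFA and at 154, 151 and 147 CPM in siNELFA+siYAP. No library of one arm reached into the range of the other, and the log2 fold change against siNELFA 2 and 3 was -1.07 (SE 0.09, adjusted p = 0.000117). ANKRD1 went from 418, 334 and 321 CPM to 167, 163 and 167 CPM, again without overlap, at -0.98 (SE 0.06, adjusted p = 1.1e-05). With all 3 siNELFA libraries the fold changes were alike, -0.99 for CTGF and -1.11 for ANKRD1, but the adjusted p-values were 0.256 and 0.165. The mean of CTGF in siNELFA+siYAP, 150 ± 3.52 CPM, lay above that of siControl, 122 ± 13.0 CPM (SD, n = 3 each), whereas the mean of ANKRD1, 166 ± 2.24 CPM, lay below its siControl mean of 369 ± 52.3 CPM.

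CYR61 (now CCN1), a matricellular protein that signals through integrins, stood at 2081, 1059 and 1312 CPM in siNELFA and at 799, 852 and 793 CPM in siNELFA+siYAP. Its arms did not overlap, and library 1 of siNELFA was well above the other 2, so the fold change was larger with it (-0.87, adjusted p = 0.735) than without it (-0.54, SE 0.08, adjusted p = 0.00543). TGFB2, a TGF-beta ligand, behaved likewise. It stood at 523, 176 and 169 CPM in siNELFA and at 112, 94.5 and 92.7 CPM in siNELFA+siYAP, with fold changes of -1.54 over all libraries and -0.80 against siNELFA 2 and 3 (adjusted p = 0.00109). CRIM1, a transmembrane protein that binds BMPs, changed by -0.61 (adjusted p = 0.00109) and AMOTL2, an angiomotin that holds YAP at junctions, by -0.56 (adjusted p = 0.00253). Other members stayed near 0 or did not pass: PTPN14, NUAK2, DOCK5 and NT5E had log2 fold changes between -0.03 and 0.05, and IGFBP3, although at -0.88, had an unadjusted p of 0.0113.

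The promoters of CTGF, ANKRD1, MAMDC2 and WTIP are shown as examples of lowered genes with 2 or 3 copies of GGAATG within the 250 bases before the start site. FGF1 also had 2 copies in 1 of its 4 windows, while ATP6V0A4, TMEM236, KISS1 and PPME1, lowered as well, had none. In all, 10 of 14 leading lowered genes with a window held at least 1 copy, and YAP1, the siRNA target itself, is counted among the 10. Sequences are those of RefSeq on GRCh38.p14, written 5′ to 3′ on the strand of the gene, and capitals mark GGAATG or its reverse complement. MAMDC2 encodes an extracellular proteoglycan and WTIP a LIM protein of the Ajuba family, which binds LATS kinases. The windows are chr6:131951373-131951622 (minus strand) for CTGF, chr10:90921088-90921337 (minus) for ANKRD1, chr9:70043331-70043580 (plus) for MAMDC2 and chr19:34481508-34481757 (plus) for WTIP. For MAMDC2 the window belongs to the more upstream of its 2 RefSeq starts.
CTGF: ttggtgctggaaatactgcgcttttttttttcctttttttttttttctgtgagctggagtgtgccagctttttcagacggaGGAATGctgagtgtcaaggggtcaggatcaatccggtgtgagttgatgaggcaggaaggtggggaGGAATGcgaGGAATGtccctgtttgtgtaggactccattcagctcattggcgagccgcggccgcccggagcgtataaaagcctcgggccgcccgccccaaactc
ANKRD1: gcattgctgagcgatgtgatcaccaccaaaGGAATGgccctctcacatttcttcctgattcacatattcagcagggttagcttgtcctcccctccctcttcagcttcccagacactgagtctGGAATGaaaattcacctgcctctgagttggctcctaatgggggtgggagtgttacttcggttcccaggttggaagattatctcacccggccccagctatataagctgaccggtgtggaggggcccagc
MAMDC2: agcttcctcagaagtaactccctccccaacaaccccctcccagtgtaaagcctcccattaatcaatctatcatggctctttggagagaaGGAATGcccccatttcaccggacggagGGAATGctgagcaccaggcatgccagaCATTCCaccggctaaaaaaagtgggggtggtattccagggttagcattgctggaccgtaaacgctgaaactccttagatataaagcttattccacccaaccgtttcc
WTIP: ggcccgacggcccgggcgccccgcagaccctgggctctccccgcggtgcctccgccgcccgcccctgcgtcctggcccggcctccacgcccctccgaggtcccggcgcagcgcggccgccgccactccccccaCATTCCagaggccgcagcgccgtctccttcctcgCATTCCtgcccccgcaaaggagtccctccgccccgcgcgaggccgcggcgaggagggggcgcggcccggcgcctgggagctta

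The 3 copies in CTGF begin 169, 104 and 95 bases before the start site and those in ANKRD1 220 and 128 bases before it. In MAMDC2 they begin at 161, 134 and 107 bases, evenly spaced, and in WTIP at 117 and 83 bases. Of all 35116 RefSeq promoter windows of this length, 11.9% held at least 1 copy on either strand, 0.94% at least 2 and 0.0826% at least 3. A promoter window was matched for 99 of the 140 genes called lower against siNELFA 2 and 3. Of the 99, 25 (25.3%), YAP1 included, held GGAATG in at least 1 window. Windows on chr8 were left out of these gene sets and of the leading genes, but not of the 35116. The share was 11.3% (7 of 62) for genes called higher and 13.3% (1383 of 10434) for genes tested and not called. At least 2 copies in 1 window were found in 5 of the 99 lowered genes (5.05%), in 0 of the 62 raised genes and in 0.958% of those not called. The AP-1 motif TGANTCA, searched in the same windows, was present in 12.1% of the lowered, 9.68% of the raised and 6.20% of the uncalled genes. These shares were not tested, and genes had on average 1.45 to 1.53 windows.

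Across all genes, the size of the response depended on siNELFA library 1. With all 3 siNELFA libraries, 17463 genes were tested and YAP1 alone passed an adjusted p of 0.05 (0.00573%), while 1156 genes (6.62%) had an unadjusted p under 0.05, 470 of them higher and 686 lower. Against siNELFA 2 and 3, 18286 genes were tested and 228 passed (1.25%), 88 higher and 140 lower. The common biological coefficient of variation fell from 0.241 to 0.103 between the 2 fits. Most changes were small: 85.7% of tested genes lay within 0.5 of 0 on the log2 scale, the median of called genes was 0.55 for those higher and -0.47 for those lower, and 11 and 17 genes changed by more than 1. The count of 228 depended on which libraries entered, being 20 to 28 when any 1 siNELFA+siYAP library was left out, 1172 or 2832 with siNELFA 3 or siNELFA 2 as the lone control library, and 1 when all 4 groups shared 1 estimate of the spread.

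**Figure D2:**
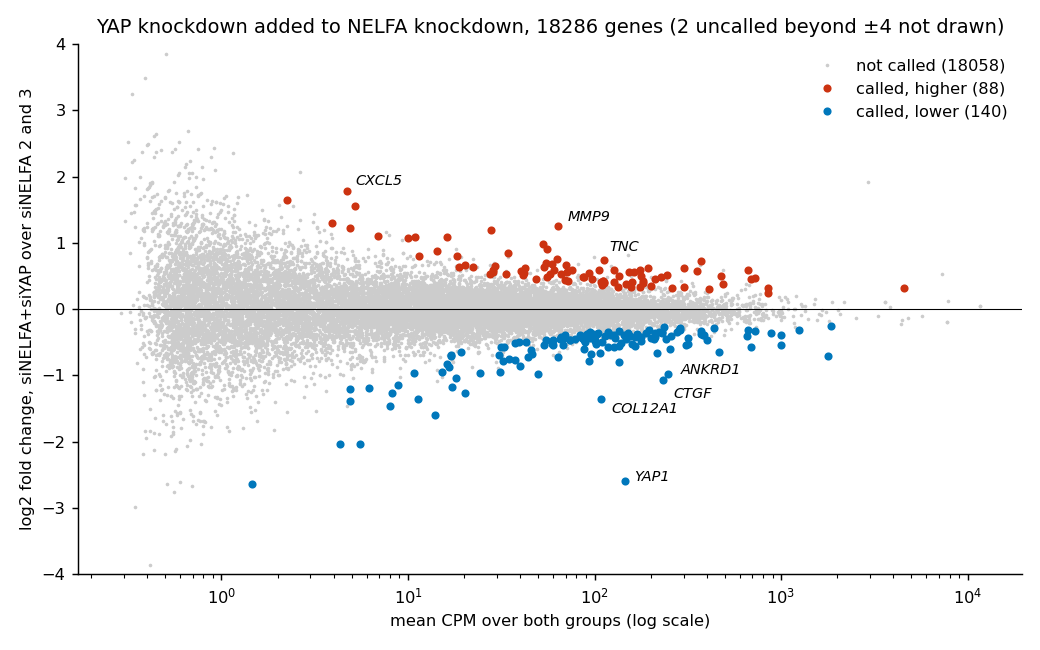
Log2 fold change of siNELFA+siYAP over siNELFA 2 and 3 (vertical axis) against mean CPM over both groups (horizontal axis, log scale) for 18286 genes, with the 88 genes called higher in red, the 140 called lower in blue and the others in grey. Called changes are mostly between 0.25 and 1 in size, and YAP1 at -2.59 stands below all other well-expressed genes.

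The 228 genes were mostly well-expressed messenger RNAs. Protein-coding genes made up 219 of them, or 1.63% of the 13402 tested, whereas 0 of 1039 antisense genes and 0 of 597 small RNA genes were called. Of genes above 100 CPM 4.81% were called, against 1.22% of those between 10 and 100 CPM, 0.298% between 1 and 10 CPM and none of the 2494 below 1 CPM. Every called gene differed in its called direction from siNELFA 2 and from siNELFA 3, but the calls were made with these libraries. The library siNELFA 1 did not enter that fit. Against it, 93 of the 140 lowered genes were lower (66.4%) and 47 of the 88 raised genes were higher (53.4%). Of all genes tested there, 32.8% of the lower and 34.9% of the higher had 1 direction against all 3 siNELFA libraries. Those shares also required agreement with siNELFA 2 and 3, which the calling had nearly fixed for called genes. Over all 3 siNELFA libraries, the ranges of the arms did not overlap for 15.1% of the 17463 genes tested.

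Among the factors YAP works with, TEAD1 fell. TEAD1, one of the 4 TEAD DNA-binding factors, stood at 232, 293 and 269 CPM in siNELFA and at 203, 201 and 211 CPM in siNELFA+siYAP. The arms did not overlap, and the log2 fold change against siNELFA 2 and 3 was -0.46 (SE 0.06, adjusted p = 0.00538), or -0.37 (adjusted p = 0.735) with all libraries. WWTR1, which encodes the YAP paralog TAZ, stood at 74.7, 84.4 and 80.1 CPM in siNELFA and at 96.4, 94.3 and 91.7 CPM in siNELFA+siYAP. All its siNELFA+siYAP values were the higher ones, but at 0.19 (SE 0.08, adjusted p = 0.279) it did not pass. TEAD2, TEAD3, TEAD4 and VGLL4, a competitor of YAP for TEAD, did not pass either, with log2 fold changes between -0.35 and 0.15 against siNELFA 2 and 3.

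Hippo pathway genes were for the most part slightly lower. Of 26 Hippo kinases and upstream regulators tested, 19 were lower and 7 higher against siNELFA 2 and 3, with a median of -0.14, and 3 passed, all lower. AMOTL2, counted above among the targets too, is one of them. WWC1 (KIBRA), a scaffold that activates LATS kinases, went from 237, 179 and 194 CPM to 134, 132 and 126 CPM (-0.52, adjusted p = 0.00432). AJUBA, a LIM protein that restrains LATS, went from 150, 130 and 130 CPM to 97.3, 97.5 and 99.6 CPM (-0.41, adjusted p = 0.0162). Neither gene's arms overlapped. Without siNELFA+siYAP 1, 2 or 3, the list of 26 had 0, 0 or 1 called member. LATS2, itself a YAP target, was at -0.32 with an unadjusted p of 0.014, and LATS1 at 0.05.

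Actin-binding and contractile genes, many of them driven by SRF, fell in part. Against siNELFA 2 and 3, 19 of 20 tested members were lower and 4 passed: CNN3, MYL9, TAGLN and ACTN4. Leaving out siNELFA+siYAP 1, 2 or 3 left 0, 0 or 1 called, and either lone siNELFA library gave 9 called lower. The list's median was -0.17, and against each siNELFA library alone 17, 16 and 18 of the 20 were lower. CNN3, the acidic calponin, went from 306, 291 and 238 CPM to 163, 168 and 170 CPM (-0.67, adjusted p = 0.00237). MYL9, a regulatory myosin light chain, went from 129, 117 and 124 CPM to 83.1, 86.2 and 83.3 CPM (-0.52, adjusted p = 0.00543). TAGLN, the smooth muscle actin cross-linker SM22, was low throughout and went from 10.3, 9.40 and 13.8 CPM to 5.30, 4.29 and 4.95 CPM (-1.26, SE 0.21, adjusted p = 0.0162). None of these 3 overlapped between arms, whereas ACTN4 (-0.37, adjusted p = 0.0292) overlapped through siNELFA 1. The abundant actins ACTB (-0.14) and ACTG1 (-0.17) did not pass.

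Extracellular matrix and protease genes formed the list with the most raised members. Of 37 tested against siNELFA 2 and 3, 29 were higher and 8 lower; 11 rose and 2 fell past the test, and the median was 0.32. The 11 became 5, 3 and 5 without siNELFA+siYAP 1, 2 and 3, and 13 or 24 with siNELFA 3 or siNELFA 2 as the lone control library. MMP9, a gelatinase, stood at 5.80, 36.8 and 38.8 CPM in siNELFA and at 84.5, 92.7 and 93.7 CPM in siNELFA+siYAP, the largest rise of the list (1.25, SE 0.09, adjusted p = 4.04e-05). The collagenase MMP1 went from 51.0, 143 and 162 CPM to 239, 233 and 235 CPM (0.62, adjusted p = 0.00146), and MMP14, the membrane-bound protease that activates pro-MMP2, rose by 0.46 (adjusted p = 0.00694). TIMP1, an inhibitor of these enzymes, rose as well, from 168, 121 and 127 CPM to 179, 189 and 179 CPM (0.55, adjusted p = 0.00252).

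Among structural matrix genes, LTBP3, which anchors latent TGF-beta, went from 49.0, 51.0 and 43.3 CPM to 77.7, 82.2 and 78.4 CPM (0.75, adjusted p = 0.00284). TNC, the de-adhesive glycoprotein tenascin-C, went from 72.8, 65.6 and 102 CPM to 140, 138 and 144 CPM (0.74, adjusted p = 0.0244). LTBP3, TNC, MMP1, MMP9 and TIMP1 were higher than every siNELFA library. LAMA5, MMP14, COL6A1, COL6A2 and FN1 rose against siNELFA 2 and 3 only, since siNELFA 1 held more of them than any siNELFA+siYAP library, and FN1 and COL6A2 had log2 fold changes of -0.25 and -0.18 when it was included. The list's median was 0.06 against siNELFA 1, 0.47 against siNELFA 2 and 0.10 against siNELFA 3.

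The 2 matrix genes that fell, COL12A1 and THBS1, did so without overlap. COL12A1, a fibril-associated collagen, stood at 813, 172 and 139 CPM in siNELFA and at 58.1, 64.2 and 60.6 CPM in siNELFA+siYAP (-1.35, SE 0.10, adjusted p = 4.04e-05). Library 1 was several times the others, and the fold change with it was -2.62 (adjusted p = 0.735). THBS1, thrombospondin-1 and also a known YAP target, went from 3910.1, 1826 and 2569 CPM to 1353, 1330.0 and 1379.5 CPM (-0.70, adjusted p = 0.00587).

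Integrins and secreted inflammatory genes had few members called against siNELFA 2 and 3, all higher. Of 15 integrin subunits tested, ITGA2, the collagen-binding alpha 2 chain, rose by 0.62 (adjusted p = 0.000612) and ITGA5, the fibronectin-binding alpha 5 chain, by 0.59 (adjusted p = 0.0246). ITGA2 stood at 281, 233 and 244 CPM in siNELFA and at 372, 370 and 357 CPM in siNELFA+siYAP. Of 24 chemokines and cytokines, CSF1, PTGS2 and CXCL5 rose against siNELFA 2 and 3. When any 1 siNELFA+siYAP library was left out, 0 chemokines and cytokines and 1 integrin were called. Against siNELFA 1, 2 and 3 alone, the median difference of the chemokines and cytokines was -0.15, 0.56 and -0.04. Of the 24, 12, 19 and 10 were higher. CSF1, a macrophage growth factor, stood at 1383 CPM in siNELFA 1 and at 812 to 881 CPM in siNELFA+siYAP, and with all 3 libraries it was at -0.04. PTGS2, the inducible cyclooxygenase, went from 5.33, 12.9 and 20.8 CPM to 45.8, 32.7 and 38.2 CPM (1.20, SE 0.19, adjusted p = 0.0125). CXCL5, a neutrophil chemokine, rested on few reads, at 1.25, 1.38 and 2.79 CPM against 6.62, 9.73 and 5.49 CPM (1.79, SE 0.34, adjusted p = 0.0267). The neutrophil chemokine CXCL8 (0.40) and the cytokine IL6 (0.03) did not pass.

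Proliferation genes were lower against siNELFA 2 and 3, and S phase and histone genes were higher against siNELFA 1. Against siNELFA 2 and 3, all 35 tested DNA replication and S phase genes and all 41 mitotic genes were lower, with medians of -0.34 and -0.35. Of these 7 and 6 passed, among them CDC6, UHRF1, TK1, TYMS, GINS1 and RRM2 for S phase, and ANLN, TPX2, KIF23, CCNA2, BIRC5 and CCNB1 for mitosis. Both counts were 0 when any 1 siNELFA+siYAP library was left out, and were 10 and 14 with siNELFA 3, or 27 and 39 with siNELFA 2, as the lone control library. Of 44 replication-dependent histone genes 41 were lower, with a median of -0.44, and none passed. Against siNELFA 1 alone all 35 S phase genes and all 44 histone genes were higher, with median differences of 1.12 and 0.92, while the mitotic genes were mixed, 30 higher and 11 lower (median 0.13).

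CDC6, which loads the replicative helicase, stood at 24.7, 103 and 94.9 CPM in siNELFA and at 74.8, 71.3 and 72.9 CPM in siNELFA+siYAP. RRM2, a subunit of ribonucleotide reductase, stood at 41.4, 217 and 258 CPM against 182, 190 and 186 CPM. In both genes the siNELFA+siYAP libraries lay between siNELFA 1 and the other pair. Summed over the 35 genes, S phase transcripts came to 978, 2916 and 2516 CPM in siNELFA and to 2130, 2138 and 2184 CPM in siNELFA+siYAP, and replicate 1 was also the lowest of its group in siControl (1348 CPM against 3467 and 3080) and siYAP (1169 CPM against 3328 and 2836). With all 3 siNELFA libraries the S phase median was 0.0075, the mitotic median -0.21 (39 of 41 lower) and the histone median -0.11 (29 of 42 lower). ANLN (anillin, 305, 399 and 332 CPM against 257, 246 and 251) and CCNA2 (cyclin A2, 92.6, 78.3 and 73.5 CPM against 51.0, 57.5 and 57.8) were below every siNELFA library, with log2 fold changes of -0.54 and -0.46 against siNELFA 2 and 3. The proliferation genes moved with the replicate number in the single knockdowns, and the part of this in their fall was not tested.

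**Figure D3:**
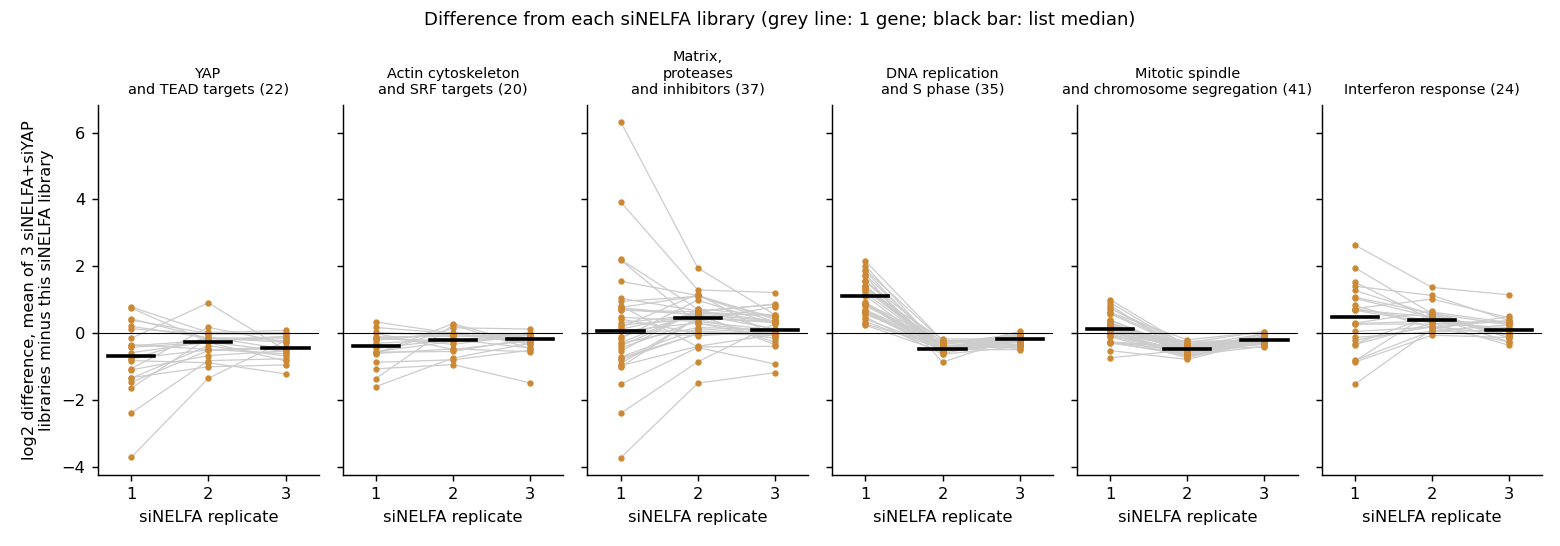
Log2 difference of the mean of the siNELFA+siYAP libraries from each siNELFA library (vertical axis, horizontal axis: siNELFA replicate 1 to 3) for the genes of 6 lists, with 1 grey line per gene and a black bar at the list median. YAP and TEAD targets have medians of -0.67, -0.26 and -0.44, whereas the S phase list changes from 1.12 against replicate 1 to -0.49 and -0.17 against replicates 2 and 3.

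Other gene lists had 3 called members or fewer. Of 24 interferon response genes 21 were higher against siNELFA 2 and 3 (median 0.21), and IFI44L passed, from 0.784, 2.08 and 2.45 CPM to 5.05, 5.58 and 6.13 CPM (1.30, SE 0.26, adjusted p = 0.0310). Taken against siNELFA 1, 2 and 3 alone, 16, 23 and 14 of the 24 were higher, with median differences of 0.49, 0.38 and 0.085. Of 22 lysosomal genes 19 were higher, and NEU1, a sialidase, passed (0.40). FTH1 (ferritin heavy chain) and AKR1C1 (an aldo-keto reductase) rose among the NRF2 and antioxidant genes while TXNRD1 (thioredoxin reductase) fell. The hypoxia-responsive genes VEGFA and PFKFB4 rose by 0.50 and 0.62, but VEGFA stood at 1186 CPM in siNELFA 1 and was at -0.24 with all 3 libraries. The amino acid transporter subunits SLC7A5 and SLC3A2 fell by 0.65 and 0.42 on the log2 scale. TGFBI and the ligand TGFB1 rose by 0.30 and 0.48. However, siNELFA 1 held more NEU1, FTH1, AKR1C1, TGFBI and TGFB1 than any siNELFA+siYAP library. With all 3 siNELFA libraries their log2 fold changes were 0.06, 0.18, 0.0014, 0.02 and 0.17, and the lysosomal list had 11 genes higher and 11 lower. SLC7A5 and SLC3A2, at 248 and 142 CPM in siNELFA 1, were there below every siNELFA+siYAP library. Over all 3 they were at -0.35 and -0.205. When any 1 siNELFA+siYAP library was left out, the list with these transporters had 1 called member. The interferon, lysosomal, antioxidant, hypoxia and TGF-beta lists then had 0.

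Single members passed in 5 further lists, namely ICAM1 (higher, an NF-kB-responsive adhesion molecule, but at 0.04 with all 3 siNELFA libraries), FOSL1 (lower, an AP-1 subunit, but at 0.02 with all 3 siNELFA libraries), PLK2 (lower, a p53-responsive kinase), ERBB2 (lower, a receptor tyrosine kinase) and KRT81 (higher, a hair keratin). These 5 lists had 0 called members when any 1 siNELFA+siYAP library was left out. None passed among 78 cytosolic ribosomal proteins, 93 respiratory chain subunits, 37 proteasome subunits, 27 genes of cholesterol and fatty acid synthesis, 16 pausing and elongation factors or 14 immediate early genes in edgeR's quasi-likelihood test. At an unadjusted p under 0.05 these lists had 14, 1, 0, 2, 0 and 6 members.

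**Figure D4:**
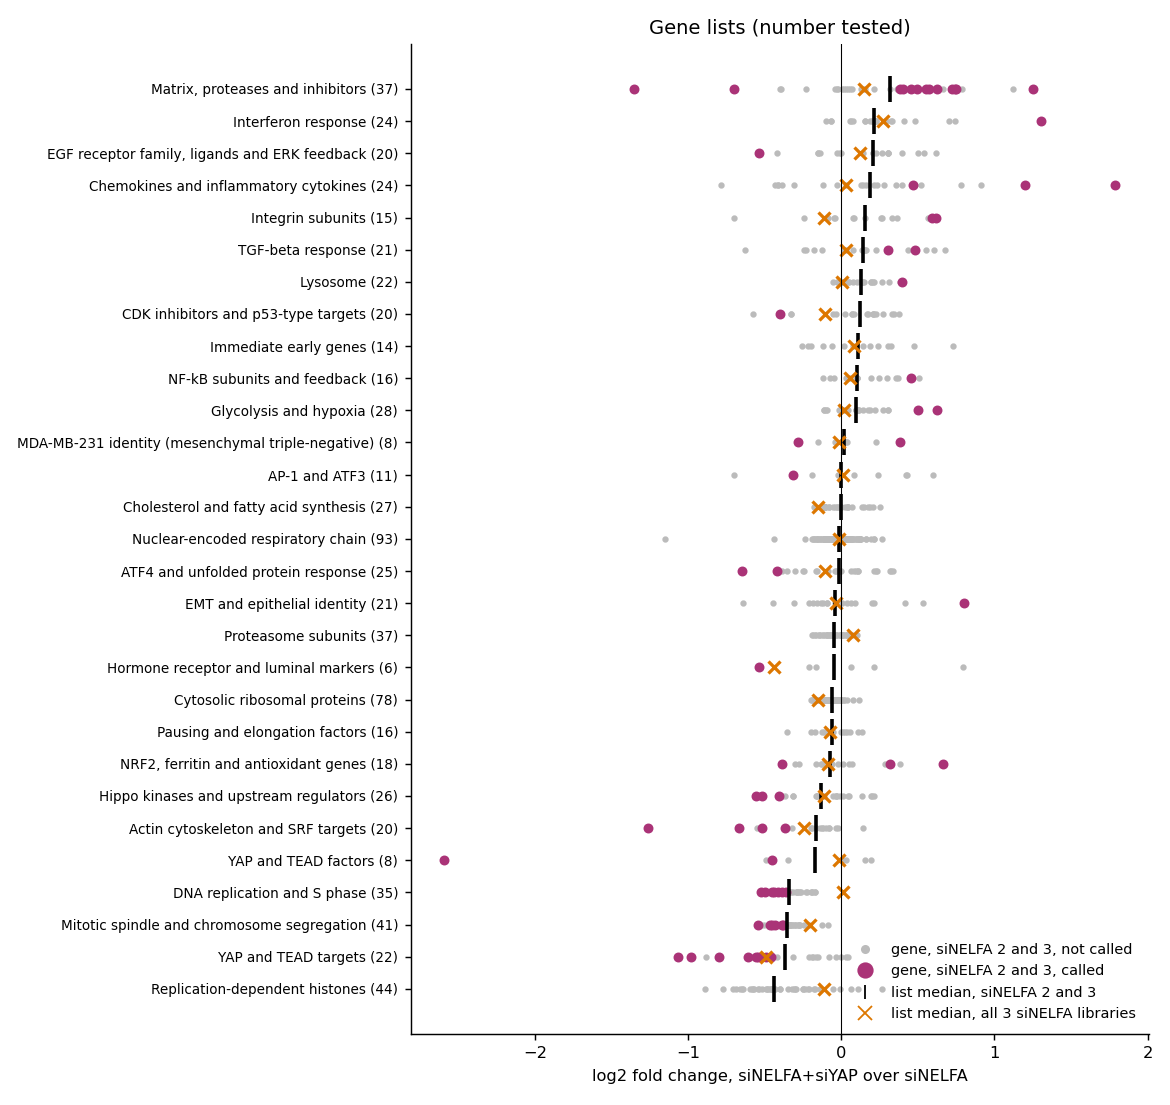
Log2 fold change of siNELFA+siYAP over siNELFA (horizontal axis) for the members of each gene list with 5 or more genes tested (rows, number tested in brackets), against siNELFA 2 and 3, with called genes as purple points, others grey, a black bar at the median and an orange cross at the median with all 3 siNELFA libraries. The median of the YAP and TEAD targets is on the lower side in both (-0.37 and -0.49), and that of the S phase list moves from -0.34 to 0.0075.

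Outside the lists, the largest falls past the test with 50 counts or more on average were those of TMEM236 (-2.03), RIMS2 (-2.03), MAMDC2 (-1.59), KISS1 (-1.46), FGF1 (-1.38), WTIP (-1.35) and ATP6V0A4 (-1.27). MAMDC2 stood at 40.5, 19.4 and 22.4 CPM in siNELFA and at 5.96, 7.44 and 7.31 CPM in siNELFA+siYAP. KISS1, which encodes the metastasis-suppressor peptide kisspeptin, went from 5.18, 11.8 and 11.6 CPM to 4.30, 3.44 and 5.00 CPM. ATP6V0A4, a proton pump subunit, went from 32.9, 25.4 and 31.6 CPM to 11.3, 12.5 and 11.8 CPM, and its fold change was nearly the same with all 3 libraries (-1.34). These 3 genes were below every siNELFA library. FGF1 encodes a fibroblast growth factor and RIMS2 a protein of synaptic vesicle release, and RIMS2 overlapped through siNELFA 1 (2.04 CPM, with 8.02 and 9.67 CPM in siNELFA 2 and 3 and 1.82, 2.43 and 2.20 CPM in siNELFA+siYAP).

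C6orf132, CSF2RA and PPME1, together with genes already named, had the smallest p-values among lowered genes when all 3 siNELFA libraries entered. C6orf132 stood at 72.9, 65.4 and 66.8 CPM in siNELFA and at 31.0, 34.8 and 35.1 CPM in siNELFA+siYAP, an almost constant gap (-1.02, adjusted p = 0.165). CSF2RA, the GM-CSF receptor alpha chain, went from 50.6, 35.4 and 47.1 CPM to 21.3, 21.0 and 21.8 CPM (-1.06, adjusted p = 0.483). Both passed against siNELFA 2 and 3, at adjusted p-values of 0.000612 and 0.00518. PPME1, a phosphatase methylesterase, had a log2 fold change of -0.57 in either comparison.

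Among raised genes outside the lists, CYTH4 (1.55), SHH (1.23), APOBEC3F (1.10), MYH15 (1.09), BMF (1.08) and CXXC4 (1.08) had the largest changes. APOBEC3F, a cytidine deaminase that restricts retroviruses, was at 5.02, 4.38 and 4.44 CPM in siNELFA and at 9.52, 9.09 and 9.73 CPM in siNELFA+siYAP. SHH, the Hedgehog ligand, was at 2.04, 2.48 and 3.36 CPM against 6.46, 5.94 and 8.07 CPM. TNFSF15, a TNF-family ligand, had the smallest p among raised genes with all 3 siNELFA libraries, at 40.9, 32.1 and 39.2 CPM against 74.4, 67.8 and 70.3 CPM (0.92, adjusted p = 0.452), and 0.99 (adjusted p = 0.00109) against siNELFA 2 and 3. KYNU, an enzyme of tryptophan breakdown, and AMPD3, an AMP deaminase, rose by 0.70 and 0.52 against siNELFA 2 and 3. All of these except CYTH4 and BMF were above every siNELFA library.

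The same genes were then read in cells with normal NELFA. siYAP against siControl shares no library with the comparison above. YAP1 alone passed there (adjusted p = 0.0162), with 225 genes at an unadjusted p under 0.05, and its call was lost when any 1 library other than siControl 1 was left out. With the replicate number as a block, which these groups share, 3 genes passed and all were lower: YAP1, TGFB2 and the overlapping transcript TGFB2-OT1. Without replicate 1 of either group, YAP1 again was the one gene called, and 221 of 227 genes called in NELFA-depleted cells and tested there (97.4%) differed in the same direction, against 62.1% of all 17370 genes tested in both. The called genes were mostly well expressed, and no share was taken over genes of like level or size of change. The genes raised in NELFA-depleted cells had a median log2 fold change of 0.30 in siYAP against siControl and those lowered -0.27, compared with 0.55 and -0.47 in the comparison that selected them. The YAP and TEAD target list had a median of -0.35 there, with 21 of 22 lower, and YAP1 changed by -2.63.

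**Figure D5:**
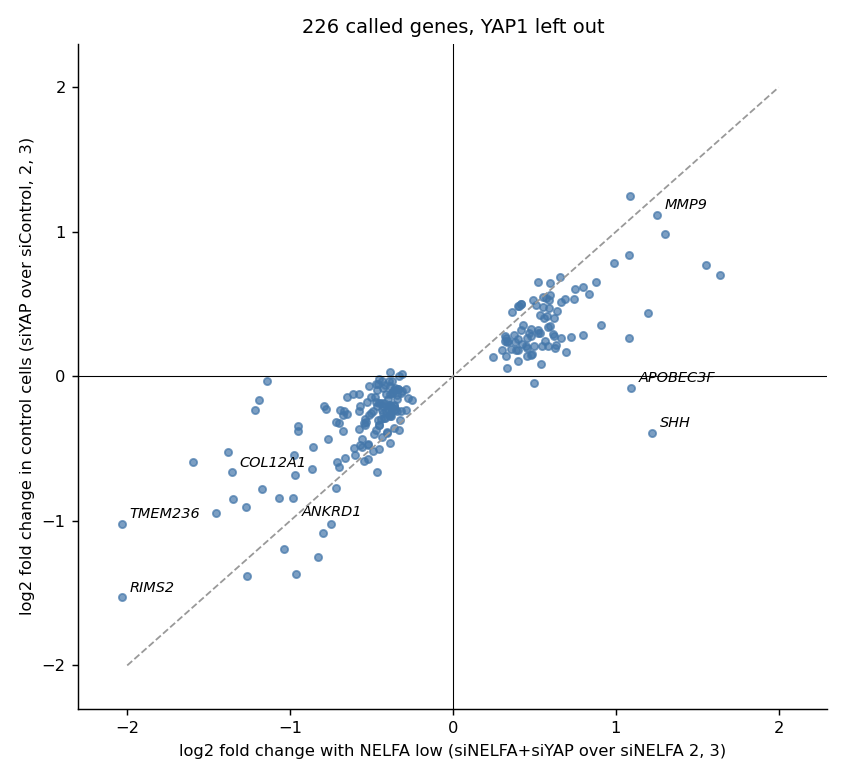
Log2 fold change of siYAP over siControl, replicates 2 and 3 (vertical axis), against that of siNELFA+siYAP over siNELFA 2 and 3 (horizontal axis) for 226 genes called in the latter, YAP1 left out, with a dashed line of equality. Most points lie at the lower left and upper right, nearer to 0 on the vertical than on the horizontal axis, and SHH and APOBEC3F lie below 0 on that axis.

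No gene passed a test of the difference between the 2 responses. Over 18525 genes in the 12 libraries, the interaction term of edgeR's quasi-likelihood test called 0 genes, with 326 at an unadjusted p under 0.05, and without replicate 1 of siControl, siYAP and siNELFA it called 0, with 588 at that level. DESeq2 likewise called 0, with 559. For YAP1 the p of the difference was 0.978, and for CTGF, CYR61 and ANKRD1 it was 0.662, 0.202 and 0.177. The smallest p-values among higher differences belonged to TMEM150C, RP11-135F9.3, SHH, APOBEC3F and SNORD100, and among lower ones to RP11-146F11.1, IMPDH1P8, RP11-10K16.1, RP11-44N21.4 and NUP210. NUP210, a nuclear pore membrane protein, stood at 70.4, 57.7 and 48.6 CPM in siNELFA and at 39.6, 39.6 and 43.7 CPM in siNELFA+siYAP, and its difference of responses was -0.66 (unadjusted p = 0.00125) without replicate 1. For SHH the difference was 1.60 (unadjusted p = 0.00198) and for APOBEC3F 1.17 (unadjusted p = 0.000887), and neither passed the adjustment over all genes.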

How the data were processed

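Gene counts, deposited by the authors, hold whole reads per gene, without normalization, for 58051 Ensembl genes in 12 libraries. Per the labels and the study's methods, total RNA was depleted of rRNA, libraries were made with a kit that marks strand, reads were trimmed with cutadapt, aligned with STAR to GRCh38 (Ensembl annotation) and counted with featureCounts. Tool versions and the strand setting of the counting are not given in the sources used here, so reads of overlapping genes may be shared. TPM values, also computed by the authors from these reads, served only as an alternative. FPKM values were not used.

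Groups came from the sample labels. Genes were kept with edgeR's filterByExpr (minimum count 10, minimum total 15, minimum proportion 0.7), scaled with TMM and tested with the quasi-likelihood F test in edgeR 4.0.16 (R 4.3.3), with Benjamini-Hochberg adjustment over all genes tested. A gene was called at an adjusted p under 0.05. The SE is the log2 fold change divided by the square root of F. The comparison was fitted with all 3 siNELFA libraries and again with replicates 2 and 3, each time against the 3 siNELFA+siYAP libraries. The interaction was fitted over the 12 libraries. DESeq2 1.42.0 and limma 3.58.1 were alternatives. The numbers of these 2 groups did not pair their libraries (correlations of same-numbered deviations -0.0507 to 0.0018).

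Named genes were the YAP, TEAD and NELF factors, the 3 targets CTGF, CYR61 and ANKRD1, list members past the threshold, up to 10 genes each way per fit by size of change (at least 50 counts on average, arms not overlapping in the fit, filled by smallest p), and up to 5 genes each way by p of the interaction. Of the list members past the threshold, 1 is not reported here by name. PTPN14, NUAK2, DOCK5, NT5E, IGFBP3, LATS1, LATS2, ACTB, ACTG1, CXCL8 and IL6 were added after their values were seen, and so were the 4 promoters printed. The genes, lists and comparisons were chosen with earlier results of these data known. Gene positions are from GENCODE v44 and promoter windows from RefSeq, both on GRCh38.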

Additional observations from a re-analysis of the deposited data

How the results depend on the processing

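With all 3 siNELFA libraries, 1 gene (YAP1) was called under RLE factors, a filter of 10 counts in every library, protein-coding genes only, all groups in 1 fit and a replicate block (1). DESeq2 called 48, edgeR with no filter beyond 1 count 26, and limma on log2(TPM + 1) and log2(TPM + 0.1) 6 each. Leaving out 1 library gave 1 to 228 genes, the 228 without siNELFA replicate 1. Sample weights in voom, chosen after seeing the data, called 127 and gave siNELFA 1 a weight of 0.115.

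Against siNELFA 2 and 3, the 228 calls became 236 with RLE factors, 240 with either stricter filter, 469 with DESeq2 (222 shared), 878 without a filter, 389 with the replicate block, 1 with all groups in 1 fit, and 10 and 11 with limma on TPM at the 2 pseudocounts. Leaving out 1 library gave 20 to 2832, where a lone siNELFA library was assumed to vary like the other group. The cause of these differences was not tested, and some settings also changed the number of libraries or of genes tested.

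YAP1 kept its direction and call under every alternative run (-2.72 to -2.59). The interaction called 0 genes under every alternative, replicate block included. siYAP against siControl called 3 genes with the replicate block, and leaving out 1 library gave 0 to 1. Of the named genes called without siNELFA replicate 1, 8 had the opposite sign with all libraries. Leaving out 1 library at a time moved these 8 over the following ranges: FOSL1 -0.31 to 0.26, UHRF1 -0.45 to 0.37, TYMS -0.39 to 0.33, RRM2 -0.36 to 0.52, CSF1 -0.27 to 0.47, VEGFA -0.54 to 0.50, FN1 -0.50 to 0.38 and COL6A2 -0.42 to 0.40. Uncalled named genes that changed sign are not among the 8. TEAD4, for example, was at 0.01 with all libraries and at -0.35 without siNELFA 1. For genes at 10 CPM and above the counts are ample, while below 1 CPM no gene was called.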
